A study of Mus musculus with 8 samples.

Results

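A set of 9 genes that mark B and T lymphocytes were examined in hippocampal RNA of SCID mice. They were Cd79a, Cd79b, Cd28, Cd247, Cd3d, Cd3e, Cd3g, Cd4 and Cd8a, taken with every probe set that the platform annotation assigned to exactly 1 of them. This gave 15 of the 22690 probe sets on the array, and all 9 genes had at least 1. Cd247 had 4 probe sets, Cd28, Cd4 and Cd8a had 2 each, and the other 5 genes had 1.

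All mice were males of the SCID strain aged 12 weeks, and all underwent contextual fear conditioning. In the FTY720 group 4 mice (replicates 1, 4, 5 and 6) were given FTY720 orally in saline at 1 mg/kg for 3 days. In the vehicle group 4 mice (replicates 13 to 16) were given saline orally for the same time. The hippocampus of each mouse was taken 1 hour after the consolidation test, 17 hours after the last treatment, and hybridised to 1 Affymetrix 3' array. FTY720, or fingolimod, is a sphingosine analogue that acts on sphingosine-1-phosphate receptors once phosphorylated, and in mice with a normal immune system it keeps lymphocytes from leaving lymph nodes.

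B and T cells recognise antigen through receptors that are assembled by rearranging gene segments, and both receptors signal through separate chains with short tyrosine motifs in their tails. CD79A and CD79B are these signalling chains of the B cell receptor, while CD3 gamma, delta and epsilon with the zeta chain CD247 are those of the T cell receptor. CD4 and CD8 are coreceptors that bind major histocompatibility complex (MHC) molecules, and CD28 gives the costimulatory signal. The scid mutation lies in Prkdc, the catalytic subunit of a DNA repair kinase needed for the rearrangement, so such mice lack mature B and T cells but keep natural killer (NK) cells, macrophages and microglia. The mutation is the known basis of the strain and is not named in the labels, and all 8 mice share it. The brain holds few lymphocytes even in mice with a normal immune system. No mice with lymphocytes were among the samples, so the values have no positive control for these probe sets.

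The arrays had similar medians, between 6.68 and 6.72 on the log2 scale. The 5' minus 3' signal of the Gapdh control averaged -0.95 in FTY720 and -1.20 in vehicle mice, and is described with Cd79a below. The median correlation of an array with the others was between 0.994 and 0.998, lowest in vehicle 15. Of 17 hippocampal and glial genes 15 had a probe set of their own, and 12 of these read above the array median, with a list median 2.41 above it. Camk2a and Prox1, both known in hippocampal neurons, nevertheless had levels of -1.62 and -3.41 relative to it, so a low reading alone does not show that a transcript is missing. Prkdc read 7.70 ± 0.02 (SD, n = 4) in FTY720 and 7.61 ± 0.10 (SD, n = 4) in vehicle mice, a level that does not show whether the mutation is present.

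Every lymphocyte marker read below the middle of its array in every mouse. None of the 120 values, 15 probe sets in 8 mice, was above the median of all probe sets of the same array. Mean levels, on the log2 scale minus the array median, ran from -0.31 for Cd4 probe set 1419696_at to -3.45 for Cd3g, with a median of -2.75. Ranked within each array, the probe sets lay on average between the 4.07 and the 45.7 percentile, 10 of them under the 25 percentile and 6 under the 10 percentile. The level of a probe set also depends on the binding of its own probes, so this order is one of signals and not of transcript amounts. In that order 11 of the 14 neighbouring pairs had overlapping ranges over the 8 mice. The 3 gaps lay between Cd3e and Cd3d, between Cd3d and Cd79a, and between the brighter Cd8a probe set and Cd79b.

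**Figure D1:**
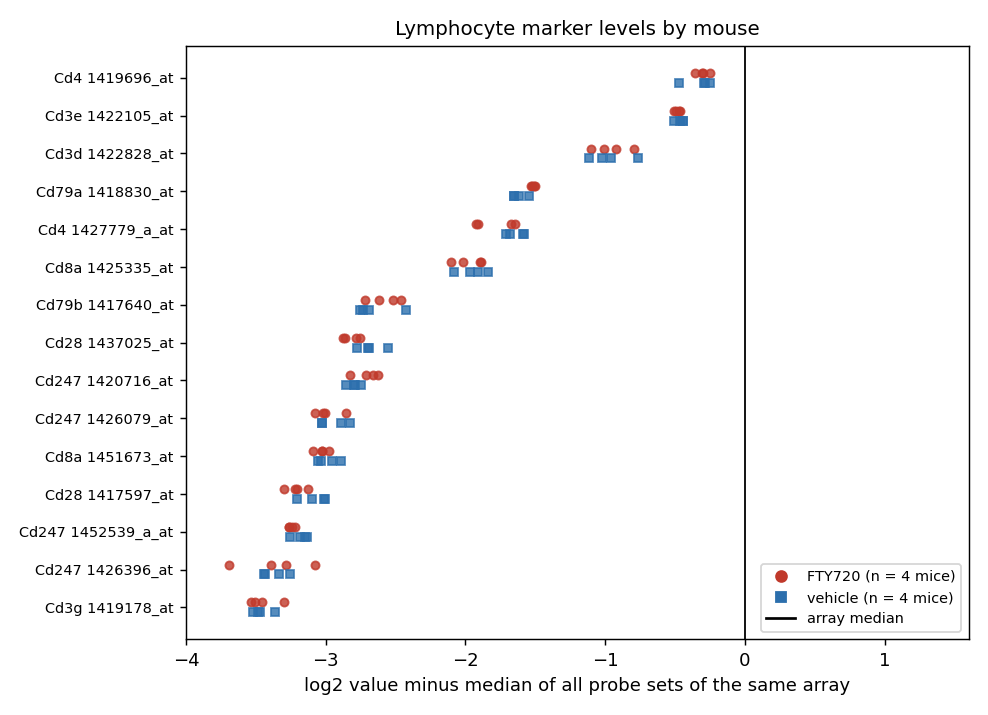
Level of each of the 15 probe sets in each mouse, as log2 value minus the median of all probe sets of the same array (x axis), with FTY720 mice as circles and vehicle mice as squares (n = 4 each). All points lie left of the array median at 0, from Cd4 1419696_at at a mean of -0.31 down to Cd3g at -3.45.

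None of these genes differed between FTY720 and vehicle mice by the test used. No member passed an adjusted p of 0.05 in limma, and nor did any other of the 22626 probe sets tested (0%), the lowest adjusted p being 0.483 over all probe sets and 0.717 among the members. Differences, FTY720 minus vehicle on the log2 scale, ran from -0.14 to 0.11, with 7 probe sets higher and 8 lower and a median of -0.0073, against 0.0090 over all probe sets, of which 54.4% were higher. At an unadjusted p under 0.05 there was 1 of the 15 (Cd79a, 6.67%), where 6.76% of all probe sets had such a p. The groups did not overlap in the same 1 of 15, against 4.38% of all probe sets. Both counts are near the background. The 95% intervals of all 15 differences lay between -0.30 and 0.27. Array background compresses small signals, so these intervals bound the measured values and not the change in RNA.

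**Figure D2:**
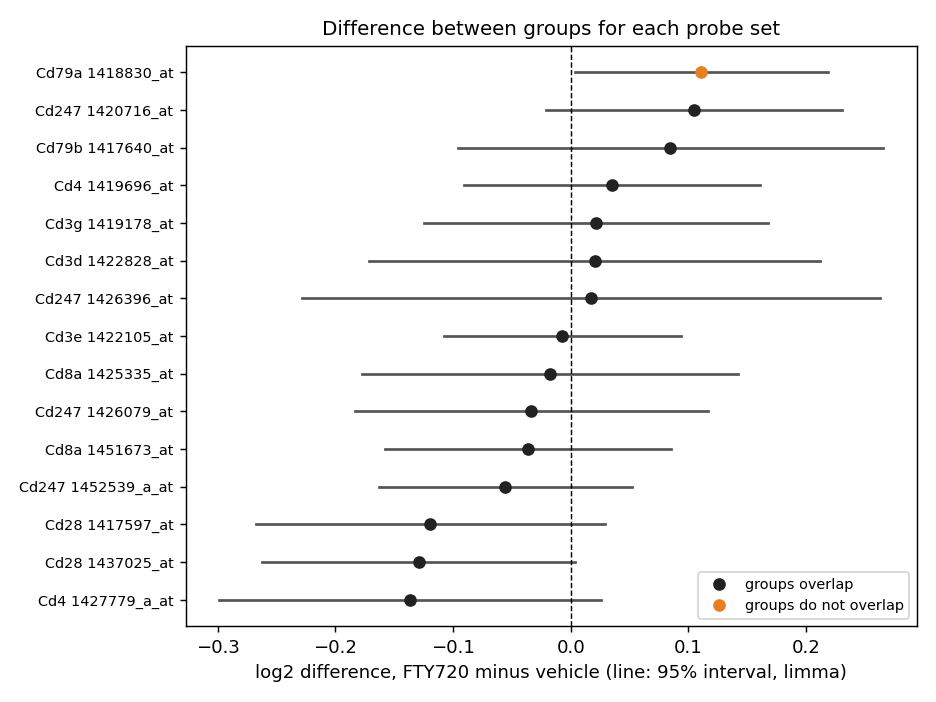
Difference between the groups for each probe set, FTY720 minus vehicle on the log2 scale (x axis), with the 95% interval of the limma fit as a line (n = 4 mice per group). Cd79a, in orange, is the probe set whose groups did not overlap, and its interval alone lies wholly on one side of 0.

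Of the B cell receptor chains, Cd79a had the higher values in every FTY720 mouse. Its log2 values were 5.19, 5.17, 5.20 and 5.19 in FTY720 mice 1, 4, 5 and 6, and 5.04, 5.10, 5.03 and 5.14 in vehicle mice 13 to 16. The FTY720 values were close together and lay just above the highest vehicle value, that of vehicle 16. The means were 5.19 ± 0.01 (SD, n = 4) and 5.08 ± 0.05 (SD, n = 4), a difference of 0.11 (SE 0.05), or 1.08-fold. Its unadjusted p was 0.0438 and its limma adjusted p was 0.717. With quantile normalization the groups overlapped (difference 0.10, unadjusted p = 0.0574, adjusted p = 0.718), and of the 8 fits without 1 mouse only that without vehicle 16 had an unadjusted p under 0.05. Without vehicle 15 and 16 together the difference was 0.12 (limma adjusted p = 0.898). At a mean level of -1.57 relative to the array median this was a dim signal. The 5' minus 3' signal of the Gapdh control, a sign of RNA integrity, was -0.95 ± 0.14 (SD, n = 4) in FTY720 and -1.20 ± 0.18 (SD, n = 4) in vehicle mice. The ranges overlapped only through FTY720 1 (-1.08) and vehicle 15 (-1.07). Its part in this or any other difference between the groups was not tested.

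As the member whose groups did not overlap, Cd79a is shown with the 250 bases before its start, from RefSeq (GRCm38.p6, chr7:24897247-24897496, plus strand), with matches to 4 short motifs in capitals.
Cd79a: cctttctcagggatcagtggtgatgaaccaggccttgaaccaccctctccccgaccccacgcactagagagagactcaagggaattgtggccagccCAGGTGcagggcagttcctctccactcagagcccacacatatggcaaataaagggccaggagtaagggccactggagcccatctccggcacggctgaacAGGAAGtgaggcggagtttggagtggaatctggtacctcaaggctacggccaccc
The motifs, searched on both strands, were CCCNNGGG of early B cell factor (EBF), AGGAAG of Ets factors, the E-box CAGGTG and the TATA box TATAAA. The window held CAGGTG from 154 to 149 bases and AGGAAG from 55 to 50 bases before the start. It held no exact match to CCCNNGGG or TATAAA. A search for exact letters misses sites that depart from them, so it does not show that the window lacks an EBF site. None of the matches overlapped. Over 32851 windows of the same length in the RefSeq table, CAGGTG was found in 17.2%, AGGAAG in 29.5%, CCCNNGGG in 11.8% and TATAAA in 12.4%. Of the 6 members in that table, 4 held AGGAAG (Cd247, Cd79a, Cd3d and Cd3e) and 4 held CAGGTG (Cd247, Cd79a, Cd3g and Cd3d). The array carries no measure of binding or transcription, so the matches describe the sequence only.

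Cd79b, the partner chain of Cd79a, differed less from its own spread. It read 4.10, 3.99, 4.19 and 4.22 in the FTY720 mice and 3.96, 3.95, 4.25 and 4.00 in the vehicle mice. Vehicle 15 held the highest of the 8 values, and the groups overlapped. The difference was 0.08 (SE 0.08, limma adjusted p = 0.865), and ran from 0.051 without FTY720 6 to 0.15 without vehicle 15, with 0.056 without vehicle 14 and 0.13 without FTY720 4. B cell receptors need both chains at the cell surface.

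**Figure D3:**
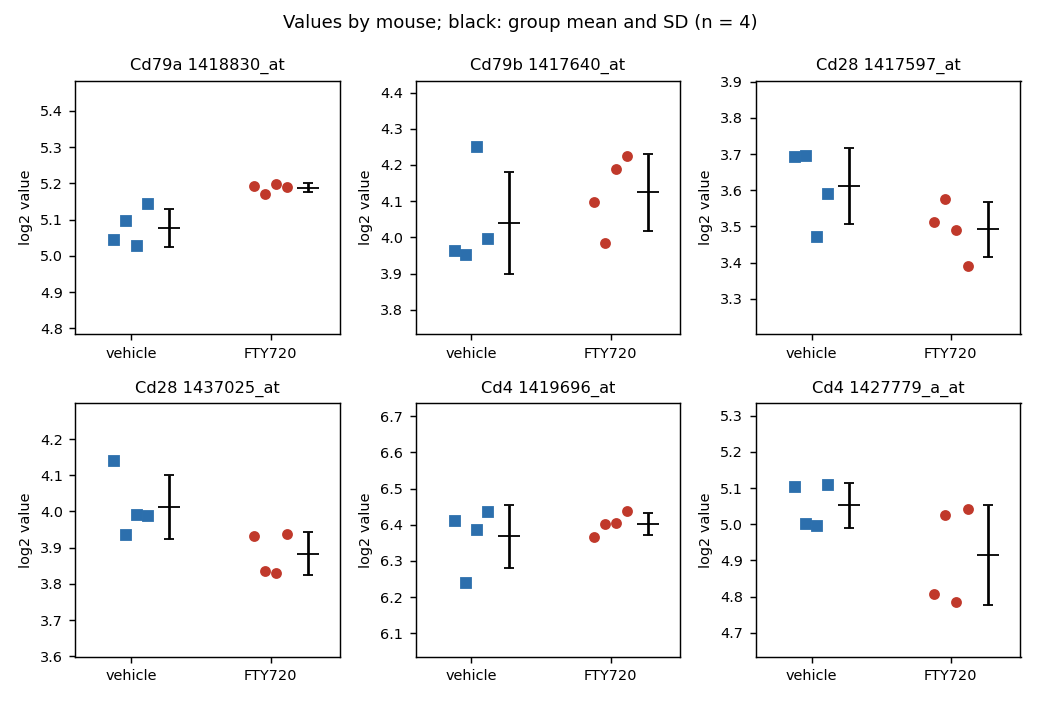
Log2 values by mouse for Cd79a, Cd79b and both probe sets of Cd28 and Cd4 (y axis, each panel spanning a range of the same width), with vehicle mice as squares, FTY720 mice as circles and the group mean and SD in black (n = 4). The groups are apart for Cd79a and overlap in the other 5 panels.

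The CD3 chains, which carry the signal of the T cell receptor, did not differ between the groups beyond their spread. Cd3e had the least spread of the 15 probe sets, with an SD of 0.02 over the 8 mice. It read 6.25, 6.21, 6.20 and 6.22 in FTY720 mice and 6.19, 6.24, 6.24 and 6.24 in vehicle mice. The 2 ranges overlapped almost fully, and the difference was -0.0073 (SE 0.05, limma adjusted p = 0.985) with a 95% interval from -0.11 to 0.09. Cd3d read 5.80, 5.69, 5.61 and 5.89 in FTY720 mice and 5.93, 5.60, 5.72 and 5.66 in vehicle mice. Both the highest and the lowest of these were vehicle mice, 13 and 14, and the difference was 0.02 (SE 0.09, limma adjusted p = 0.977). Cd3g, which neighbours Cd3d in the genome and forms a pair with CD3 epsilon in the receptor, was the dimmest member. Its values were 3.21, 3.25, 3.41 and 3.15 in FTY720 mice against 3.18, 3.23, 3.21 and 3.33 in vehicle mice. The highest was FTY720 5, and the difference was 0.02 (SE 0.07, limma adjusted p = 0.968).

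Cd247 encodes the zeta chain, which also serves activating receptors of NK cells and so is not confined to T cells. Its 4 probe sets, annotated to 4 target records, had levels between -2.75 and -3.36 relative to the array median, at average percentiles between 4.93 and 11.5. The brightest, 1420716_at, read 4.01, 3.88, 4.05 and 4.06 in FTY720 mice and 3.94, 3.86, 3.89 and 3.89 in vehicle mice. FTY720 4 stood lowest in its group and within the vehicle range, and the other 3 stood above it. The difference was 0.10 (SE 0.06, limma adjusted p = 0.760). The other 3 probe sets differed by -0.03 (1426079_at), 0.02 (1426396_at) and -0.06 (1452539_a_at), so the sign was not shared within the gene. Probe set 1426396_at had the widest spread of all members, from 3.02 in FTY720 5 to 3.62 in FTY720 4. With the 4 averaged the difference was 0.0082.

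The coreceptors gave both the brightest member and a gene whose probe sets differ in sign. Cd4 probe set 1419696_at read 6.36, 6.40, 6.40 and 6.44 in FTY720 mice and 6.41, 6.24, 6.39 and 6.44 in vehicle mice. Vehicle 14 stood lowest, and the other 7 values lay close together. The difference was 0.04 (SE 0.06, limma adjusted p = 0.922), and -0.0078 without vehicle 14. The second, 1427779_a_at, read 4.81, 5.03, 4.79 and 5.04 in FTY720 mice and 5.10, 5.00, 5.00 and 5.11 in vehicle mice. FTY720 1 and 5 were below every vehicle mouse, while FTY720 4 and 6 were within the vehicle range. This was the lowest difference among the members, -0.14 (SE 0.07, limma adjusted p = 0.760, 95% interval from -0.30 to 0.03).

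Cd8a, the alpha chain of CD8, had 2 probe sets annotated to 1 and the same target record, which nonetheless read at different levels. Probe set 1425335_at averaged 4.74 and 1451673_at 3.69 over the 8 mice. The brighter read 4.83, 4.60, 4.69 and 4.79 in FTY720 mice and 4.73, 4.80, 4.84 and 4.61 in vehicle mice, and the groups covered the same range. Its difference was -0.02 (SE 0.07, limma adjusted p = 0.977) and that of the dimmer was -0.04 (SE 0.05, limma adjusted p = 0.914). Cd8b1, the other CD8 chain, is in the list of further T cell genes.

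Cd28, the costimulatory receptor that binds CD80 and CD86, had lower FTY720 means in both of its probe sets, by more than the SE in each. Probe set 1437025_at read 3.93, 3.84, 3.83 and 3.94 in FTY720 mice and 4.14, 3.93, 3.99 and 3.99 in vehicle mice. FTY720 6 slightly exceeded vehicle 14, and otherwise the vehicle values were higher. The difference was -0.13 (SE 0.06, unadjusted p = 0.0560, limma adjusted p = 0.732). Probe set 1417597_at read 3.51, 3.57, 3.49 and 3.39 in FTY720 mice and 3.69, 3.69, 3.47 and 3.59 in vehicle mice. Vehicle 15 was low in its group, and the difference was -0.12 (SE 0.07, unadjusted p = 0.103, limma adjusted p = 0.769). Without 1 mouse it ran from -0.17 (without vehicle 15) to -0.085 (without FTY720 6). That of 1437025_at ran from -0.16 (without vehicle 14) to -0.087 (without vehicle 13). Without vehicle 15 and 16 the difference of 1417597_at was -0.20 (SE 0.07, unadjusted p = 0.0158, limma adjusted p = 0.898). The groups did not overlap there, in a smaller vehicle group. With the probe sets of the gene averaged, the groups did not overlap and the difference was -0.12 (SE 0.05, unadjusted p = 0.0333, limma adjusted p = 0.717). With quantile normalization the groups of 1437025_at did not overlap either (unadjusted p = 0.0417, limma adjusted p = 0.703). With array median centring they overlapped (unadjusted p = 0.0430, limma adjusted p = 0.737). Both probe sets overlapped with array weights, and neither had an unadjusted p under 0.05 with trended or robust variance. The share of all features without overlap was not computed for these settings. The levels of the 2 probe sets were -2.75 and -3.15 relative to the array median.

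Probe sets of the same gene did not follow each other from mouse to mouse in a way the 8 mice could show. Over the 9 pairs within Cd28, Cd4, Cd8a and Cd247, Pearson's r ran from -0.45 to 0.41, and no pair had an adjusted p below 0.871 (exact permutation over pairings, two-sided). For Cd28 r was 0.41 (exact permutation p = 0.313, adjusted p = 0.871) and Spearman's rho 0.14 (exact permutation p = 0.752, adjusted p = 0.935), with r = 0.64 without the 2 mice farthest from the median. For Cd4 r was 0.19 (exact permutation p = 0.637, adjusted p = 0.871) and rho 0.62 (exact permutation p = 0.115, adjusted p = 0.935), with r = 0.41 without the 2 farthest.

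Other genes of T, B and NK cells read mostly at levels like those of the members, and genes of resident brain macrophages read higher, given here as a description with no test. With each gene taken by its brightest probe set, the 9 markers had a median level of -1.96, all 9 below the array median. Of 26 measured T cell genes 22 were below it (median -2.34), of 25 B cell genes 22 (median -2.01) and of 16 NK cell genes 12 (median -2.11). The 4 NK list genes above it were Tyrobp (1.31), Fcgr3 (0.96), Fcer1g (0.51) and Prf1 (0.08). Whether their signal came from NK cells or from other cells such as microglia was not tested. Genes typical of testis, liver, pancreas, muscle, skin and other tissues were below it in 25 of 26 cases (median -2.16, from -3.77 to 0.39). The levels of the markers lay within that range. Over all 12393 genes 57% were above it. Microglia genes were above it in 13 of 18 cases (median 0.81). Of 15 genes shared by most leukocytes 2 were above it (median -1.45), with Ptprc, which encodes CD45, at -0.87. All 11 measured red blood cell and neutrophil genes were below it (median -2.04). The 3 genes of that list without a probe set of their own included its beta globin genes. The 4 bright T cell genes were Thy1, Fyn, Bcl11b and Zap70, of which Thy1, Fyn and Bcl11b are known in neurons. Zap70, the kinase that docks on the phosphorylated CD3 and zeta chains, had 1 probe set at 1.71 and 1 at -1.94 relative to the array median. Ighm, the heavy chain of immunoglobulin M, had 11 probe sets, from -3.05 to 0.51 relative to it, and 2 of them were above 0.

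**Figure D4:**
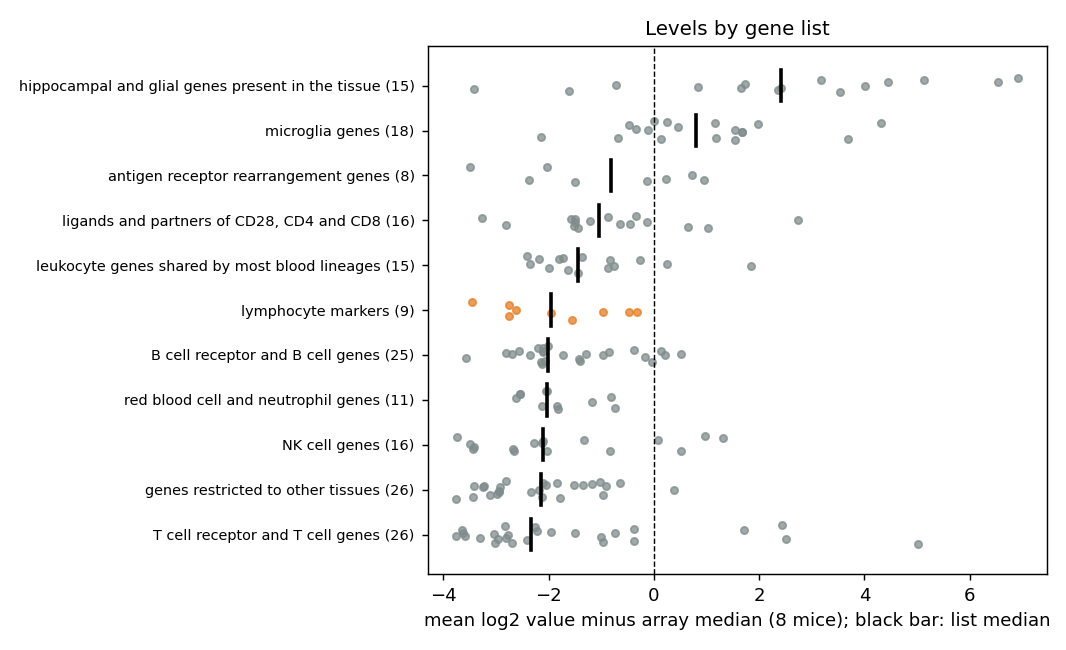
Mean level of each gene over the 8 mice, by its brightest probe set and relative to the array median (x axis), for the 9 lymphocyte markers (orange) and 10 other gene lists, with the number of measured genes in brackets and the list median as a black bar. The markers (median -1.96), the T, B and NK cell lists, the red blood cell and neutrophil list and the genes of other tissues have medians between -2.34 and -1.96. Shared leukocyte genes (-1.45), ligands and partners (-1.05) and rearrangement genes (-0.81) lie between these and the microglia (0.81) and hippocampal genes (2.41), which sit above the array median.

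No gene of these lists passed the test between FTY720 and vehicle mice (limma adjusted p). At an unadjusted p under 0.05 stood 6.26% of all genes (3.57% higher and 2.7% lower). The share was above this in the hippocampal and glial list (26.7%), the ligands and partners (18.8%), the rearrangement genes (12.5%), the T cell genes (11.5%) and the microglia genes (11.1%), each resting on 1 to 4 genes. It was 6.25% in the NK list, 4.0% in the B cell list, 3.85% in the genes of other tissues and 0% in the other two lists. Of 26 T cell genes 3 were higher at that p and none lower, led by Gata3, a T cell transcription factor (0.17, SE 0.05), and Zap70 (0.18, SE 0.07, with -0.04 in its other probe set). The Gata3 signal was dim, at a level of -3.64 relative to the array median. Of 25 B cell genes 1 was lower and none higher. It was Ebf1, a B cell factor that other cell types also use, at -0.61 (SE 0.19, unadjusted p = 0.0108, limma adjusted p = 0.685), with -0.15 and -0.28 in its other probe sets. Cd72, a B cell surface protein, came next at -0.10 (SE 0.05). The B cell list mean per mouse ran from -1.60 to -1.47 in FTY720 and from -1.57 to -1.45 in vehicle mice, relative to the array median, and these ranges overlapped. Among 16 NK genes 1 was higher at that p and none lower, namely Klra8 (0.28, SE 0.10), and Klrb1a stood at -0.16 (SE 0.08). Both were dim, at levels of -3.43 and -3.44 relative to the array median. The NK list mean ran from -1.76 to -1.67 in FTY720 and from -1.75 to -1.61 in vehicle mice.

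The list of ligands and partners of CD28, CD4 and CD8 also held genes of related receptor pathways and of peptide loading. Of its 16 measured genes 2 were higher and 1 lower at an unadjusted p under 0.05. Cd274, which encodes the inhibitory ligand PD-L1, stood at 0.23 (SE 0.07, unadjusted p = 0.0048, limma adjusted p = 0.615), and B2m, the light chain of class I MHC, at -0.19 (SE 0.07). Of 8 measured rearrangement genes 1 was higher, the end-joining factor Nhej1 at 0.18 (SE 0.08), and Dntt, which adds bases at the joints, stood at 0.15 (SE 0.09). Of 18 microglia genes 2 were lower and none higher, Gpr34 at -0.33 (SE 0.08, unadjusted p = 0.0013, limma adjusted p = 0.593) and the protease gene Ctss at -0.15 (SE 0.06). None of the 15 shared leukocyte genes and none of the 11 red blood cell and neutrophil genes had such a p. Their leading genes were Was (-0.17, SE 0.10) and Arhgdib (0.12, SE 0.09), and Alas2 (0.15, SE 0.07) and S100a9 (0.08, SE 0.08). Ptprc stood at 0.17 (SE 0.13). Of 15 hippocampal and glial genes 1 was higher, Prox1, whose level of -3.41 was the lowest of that list. The 3 lower were Aqp4 (-0.23, SE 0.07), Mbp (-0.16, SE 0.06) and Cldn5, an endothelial gene also in that list (-0.21, SE 0.09). Aqp4 had 2 probe sets and Mbp 8, and only the brightest of each is given. Of 26 genes of other tissues 1 was lower, Krt14 (-0.19, SE 0.07), with Fgb at -0.18 (SE 0.09). In whole tissue, fewer cells of a type and less RNA per cell cannot be told apart.

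For each member the brighter genes with the most similar profile over the 8 mice are given as a description. Out of 10439 probe sets above the array median, those most like Cd79a were Vps33b (r = 0.96) and Rpl7l1 (r = 0.95), and those most like Cd79b were Rrm2b (r = 0.97) and Ift22 (r = 0.94). For Cd3d they were Rhbdd3 (r = 0.91) and Pwp2 (r = 0.90), for Cd3e Yif1a (r = 0.93) and Mettl17 (r = 0.92), and for Cd3g Rhno1 (r = 0.94) and Rabep1 (r = 0.94). For Cd247 they were Rabgef1 and Sbno1 (r = 0.93 each), for Cd4 Atp6v1e1 and Taok3 (r = 0.96 each), for Cd8a Sephs2 (r = 0.94) and Acat1 (r = 0.92), and for Cd28 Cpped1 (r = 0.94) and Orc2 (r = 0.91). Each is the best of many comparisons on 8 shared arrays, and the members' SD over these arrays was between 0.02 and 0.17.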

How the data were processed

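Log2 values per probe set were used as deposited by the authors, 1 column per mouse, with no further normalization. The scale was read from the values (2.31 to 14.5). The submitters' processing notes list RMA, MAS5 and Affymetrix Expression Console without roles, and none of them is tied to the table. No slide or scan date is given either, so no batch could be tested. The number of arrays limits the precision.

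Of 22690 probe sets, 64 controls were left out of the tests. Of the 22626 tested, 20380 had 1 gene symbol in the platform annotation, 691 several and 1555 none. FTY720 was compared with vehicle over all of them by limma 3.58.1 under R 4.3.3, using lmFit, eBayes and no covariates, with Benjamini-Hochberg adjustment, and a call was an adjusted p under 0.05. SE and 95% intervals are those of the moderated fit, and the fit was tested on simulated data. Level means the log2 value minus the array's median over all probe sets. For lists, a gene was represented by its probe set of highest mean value among those annotated to it alone. Motifs and exact permutations were computed in Python 3.11.15.

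Named genes were all member probe sets, the 2 genes of smallest unadjusted p of each list, the 2 brighter genes most correlated with each member, Prkdc and Ptprc. Camk2a, Prox1, Cldn5, Thy1, Fyn, Bcl11b, Ighm, Tyrobp, Fcgr3, Fcer1g and Prf1 were named after their values were seen. The members, lists and motifs were chosen with earlier results of these data known.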

Additional observations from a re-analysis of the deposited data

Results flagged for a closer look

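In 2 of the 30 groups of 4 values, 1 mouse stood far from the other 3, where chance gives about 1 in 20. Cd79b read 4.25 in vehicle 15, and the other vehicle mice were between 3.95 and 4.00. Cd3e read 6.19 in vehicle 13, and the other vehicle mice were all at 6.24.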

How the results depend on the processing

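No paired analysis was possible because the groups share no replicate number. No member passed an adjusted p of 0.05 under any alternative (lowest limma adjusted p 0.594). A filter on probe sets above the median level removed all members. The count of members at an unadjusted p under 0.05 was 1 of the 15 probe sets. It became 2 of the 9 genes with probe sets averaged per gene (Cd79a and Cd28). Over the probe sets it was 0 with trended variance, 4 with array weights and 0 to 2 without 1 mouse. The 4 with array weights were Cd79a, both probe sets of Cd28 and Cd4 1427779_a_at, where 1549 of all 22626 probe sets had such a p. The gene changed with the mouse left out, being Cd247 without FTY720 4, Cd4 without FTY720 6, Cd28 without vehicle 14, Cd28 and Cd79b without vehicle 15 and Cd79a without vehicle 16. It stayed 1 under quantile normalization and median centring, where the gene was Cd28 and not Cd79a (unadjusted p of Cd79a 0.0574 and 0.0641). Members whose groups did not overlap were 1, and became 2 with averaging, 4 without vehicle 15 and 16, and 1 to 2 without 1 mouse. The share of all features without overlap was not computed for these settings, so none of these counts can be set against a background. The 4.38% of the main comparison does not serve, because smaller groups fail to overlap more easily and averaging counts genes. Over all 22626 probe sets the count at an unadjusted p under 0.05 was 1529. It was 1592 with trended variance, 1549 with array weights, 1599 with quantile normalization, 1524 with median centring and 1266 to 1838 without 1 mouse. Over the 12393 genes it was 823 by the highest probe set and 835 by the mean. It was 969 above the median level and 995 without probe sets that can bind several transcripts, which also test fewer features.

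The sign of the difference held in 7 of the 15 probe sets under every alternative that gave a value. With averaging Cd4 was -0.051. With array weights Cd3d was -0.037 and Cd3e 0.0036. Without vehicle 15 and 16 Cd3d was -0.015, Cd3e 0.0053 and Cd8a 1451673_at 0.015. Without 1 mouse the ranges were -0.074 to 0.0052 for Cd247 1426079_at, -0.076 to 0.12 for Cd247 1426396_at, -0.028 to 0.088 for Cd3d, -0.030 to 0.055 for Cd3g, -0.0078 to 0.058 for Cd4 1419696_at and -0.062 to 0.026 for Cd8a 1425335_at. The cause was not tested. The median level of the members was -2.75, against -2.83 with the median over probe sets of 1 gene and -2.86 with the array mean as reference, and none was above the reference in any case. By level, 10 of the 15 probe sets lay under the 25 percentile of their arrays.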
